A study of Mus musculus with 7 samples.

Results

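The colon of mice killed 6 weeks after the last of 6 enemas of TNBS was compared with the colon of mice that had received saline. TNBS (trinitrobenzene sulphonic acid) is a hapten that, given in ethanol, provokes a colitis driven by T cells. The comparison sets 1 array of the week 12 TNBS pool against 1 array of the later saline pool, 2 of the 7 arrays of the series. Its members are all probe sets that the platform annotation gives 1 gene symbol, 10833 of the 12488 in the table, which stand for 8251 genes. A gene was kept when its signal reached 100 in the highest of the 6 RNA pools, which left 4316 genes.

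All mice were female CD-1 outbred animals, which are not genetically identical, and were 10 to 12 weeks old when the enemas began. Tissue was taken 4 ± 0.5 cm from the anus, and RNA of the mice of a group was pooled before labelling. The week 12 TNBS pool was made from 4 mice. The later saline pool was also made from 4 mice, 2 killed 2 weeks and 2 killed 4 weeks after 6 saline enemas, so the control is 2 weeks younger or more and age and treatment cannot be told apart. No group received ethanol without TNBS, so the contrast is TNBS with ethanol against saline. The other pools served as a frame: TNBS pools of 6 mice at 3 days (week 6), 4 mice at 2 weeks (week 8) and 5 mice at 4 weeks (week 10), and a week 6 saline pool of 5 mice that was measured on 2 arrays.

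Repeated TNBS injures the colonic epithelium, draws neutrophils, macrophages and T cells into the wall, and lays down matrix. Once the hapten is withdrawn, inflammatory cells leave, crypts regenerate, and the surface cells that absorb water and secrete mucus are replaced. Mast cell chymases, Reg lectins and interferon-induced GTPases are common markers of the inflamed phase, and transporters, tight junction proteins and mucus genes of the restored epithelium.

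Both arrays carried the RNA of colon. The markers of absorptive colonocytes (Car1, Car4, Aqp8, Vil1, Krt20), of goblet cells (Tff3, Fcgbp, Agr2) and of smooth muscle (Acta2, Actg2, Myh11, Tagln, Des) all lay above the floor of 50 on both. Of the 5 skeletal muscle markers none reached 50 on either array, and of the 5 squamous markers only Lor did. These markers do not stand for the wider lists, of which 4 of 22 skeletal muscle and 9 of 22 squamous genes passed the filter. Among them, Tnni1 read 751 in the later saline pool and 842.5 at week 12, and Sprr1b 1341 and 971. The signals of the 2 arrays correlated at r = 0.981 and both arrays of the week 6 saline pool at 0.987, across probe sets and not across replicates. The signal ratio of the 3' over the 5' control for beta-actin, which grows as RNA degrades, was 0.818 at week 12, 0.798 in the later saline pool and 1.14 to 1.24 on the 3 week 6 arrays.

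Of the 4316 genes, 31 (0.718%) read at least 2-fold higher at week 12 than in later saline, and 38 (0.88%) read at least 2-fold lower. With array medians made equal the split was 41 and 33. With 1 pool on each side there is no replicate check and no p-value. Counted in the same way, the 2 arrays of the one week 6 saline pool differed in 0.718% of genes, 0.348% one way and 0.371% the other. The 2 saline pools differed in 1.81%, with 37 genes higher (0.857%) and 41 lower (0.95%) in the later one. The week 12 count in either direction was 1.6%, below the share by which the saline pools differed without any TNBS. The 2 shares are not like for like. The saline pools were taken 3 days and 2 to 4 weeks after the last enema. Their beta-actin ratios were 1.14 and 1.23 at week 6 and 0.798 later, while the week 12 array had 0.818. The part of this in the shares, also in those against the week 6 saline pool, was not tested. At week 6 the share was 3.54%, and against the later saline pool it was 3.29% at week 8 (1.53% higher, 1.76% lower) and 1.48% at week 10 (0.834% and 0.649%). Set against the week 6 saline pool instead, the week 12 share was 3.36% (1.34% higher, 2.02% lower). The SD of the log2 difference over all genes was 0.37 at week 12, 0.37 between the saline pools and 0.29 between the repeated arrays.

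**Figure D1:**
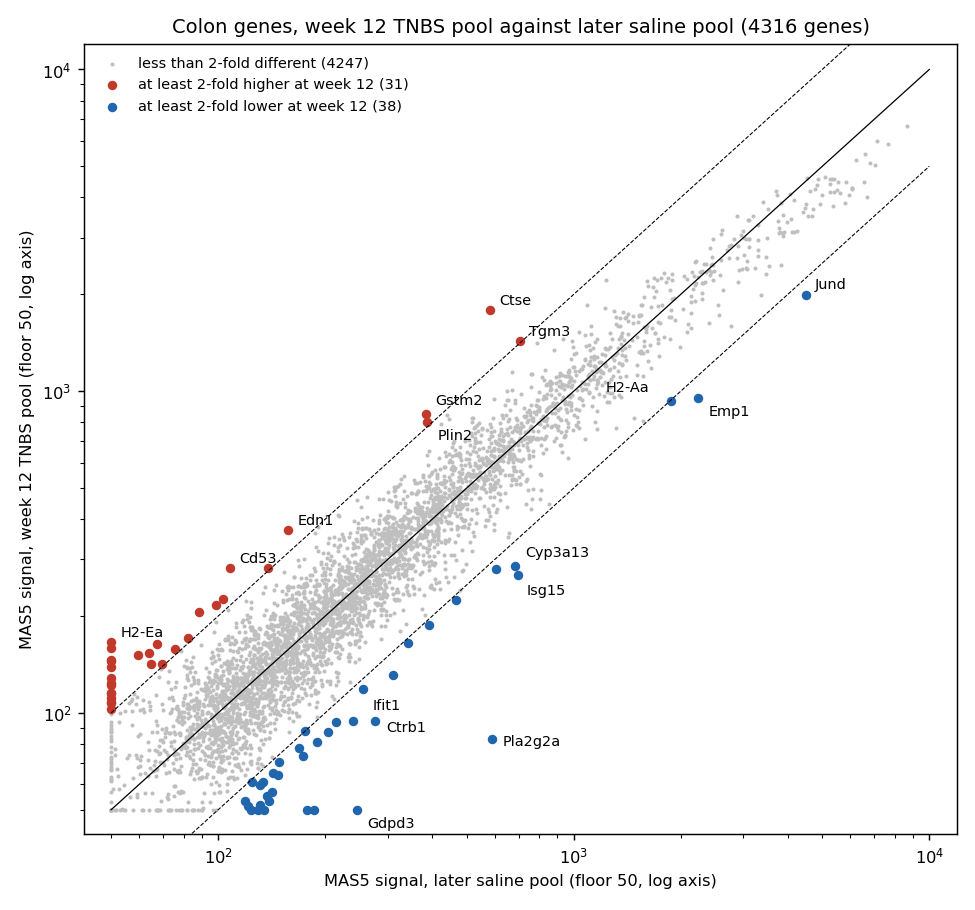
Signal of each of the 4316 genes in the later saline pool (x) and the week 12 TNBS pool (y), both on log axes with values under 50 set to 50; the solid line marks equal signal and the dashed lines 2-fold. The 31 red genes and 38 blue genes lie past 2-fold, with Ctse and Tgm3 the brightest of the higher genes and Jund, Emp1 and H2-Aa the brightest of the lower.

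Most of these differences were of dim genes. Of the 31 higher genes 21 stayed under 200 in both pools, and 14 lay under the floor in saline, where only a bound can be given ("at least"). Of the 31, 9 reached the filter through the week 12 pool alone, so the filter favoured that direction for them. Of the 38 lower genes 21 also stayed under 200, 6 lay under the floor at week 12, and 1 (Rpf1) reached the filter through the later saline pool alone. Only 13 of the 31 and 16 of the 38 were also at least 2-fold different from the week 6 saline pool. The later saline array was the lowest of all 7 for 13 of the 31 higher genes and the highest for 10 of the 38 lower genes. At least 2-fold beyond each of the 3 saline arrays were 9 genes upward (0.209%) and 11 downward (0.255%). Of the 9, 6 (Gtf2f2, Ido1, Hus1, Cand1, Slc46a1 and Irs2) reached the filter through the week 12 pool alone, so their count is not support. By the same count 1.3% were higher and 0.255% lower at week 6, 0.95% and 0.718% at week 8, and 0.232% and 0.0695% at week 10. Upward these were H2-Ea, Gtf2f2, D17H6S56E-5, Ido1, Hus1, Gstm2, Cand1, Slc46a1 and Irs2, and downward Pla2g2a, Gdpd3, Vps51, St3gal4, Pcp4l1, P4hb, Krt32, Mab21l2, Pnmt, Ighv5-12 and Kcnh2.

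Of the genes higher at week 12 that were measured above the floor on both arrays, Ctse had the largest difference. It encodes cathepsin E, an intracellular aspartic protease of epithelial and antigen-presenting cells. Ctse read 1785 in the week 12 pool and 581 in the later saline pool, 3.07-fold higher, and 953 and 918 on the week 6 saline arrays. The earlier TNBS pools read 755, 273 and 567 at weeks 6, 8 and 10, so the week 12 array was the highest of all 7. Its other 2 probe sets had log2 differences of 1.04 and 2.01, in the same direction. Against the week 6 saline pool Ctse was 1.91-fold higher.

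Gstm2, a glutathione S-transferase that conjugates electrophiles, read 851 at week 12 against 385 in the later saline pool, 2.21-fold higher. Its week 6 saline arrays read 262 and 291, and the TNBS pools of weeks 6, 8 and 10 read 268, 163 and 208. The week 12 value lay above all 6 other arrays. Its second, dimmer probe set differed by 0.47 on the log2 scale.

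Tgm3 encodes a transglutaminase, an enzyme that links proteins to each other in differentiated epithelium. It read 1428 at week 12 and 704 in the later saline pool, 2.03-fold higher. Its signal was 285 at week 6, 174 at week 8 and 862 at week 10, and the week 6 saline arrays read 810 and 464. The early TNBS pools were thus the lowest and the week 12 pool the highest of the 7 arrays. Slc26a2, a sulphate transporter of the surface epithelium, was likewise highest at week 12 and lowest at week 8, with 362 at week 12, 235 in the later saline pool and 161, 78.3 and 137 at weeks 6, 8 and 10. Its difference at week 12 was 1.54-fold, a log2 difference of 0.63, under the threshold. The repeated week 6 saline arrays read 251 and 153, which is 0.72 apart on the log2 scale.

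Edn1, the precursor of the vasoconstrictor endothelin 1, read 370.0 at week 12 against 157 in the later saline pool, 2.35-fold higher. The remaining 5 arrays read 84.1 (week 8) to 195, and the second Edn1 probe set had a log2 difference of 1.35. Plin2, which coats lipid droplets, was 2.08-fold higher, with 802 against 386, but read 765 at week 10 and 619 and 521 on the week 6 saline arrays. Cldn2, a claudin that forms cation pores in tight junctions, read 139 at week 12 and 29.4 in the later saline pool, at least 2.79-fold higher. It read 99.2 and 103 on the week 6 saline arrays, so against that pool its log2 difference was 0.46.

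Cd53, a tetraspanin on the surface of leukocytes, read 282 at week 12 and 108 in the later saline pool, 2.60-fold higher. It was the one named gene past 2-fold in each of the later comparisons, which share the saline pool: its log2 differences were 1.39 at week 8, 1.15 at week 10 and 1.38 at week 12. The TNBS signals were 383, 285, 241 and 282 from week 6 to week 12. All 4 lay above the 3 saline arrays, which read 153, 78.5 and 108. The repeated arrays of the week 6 saline pool themselves differed by 0.96 on the log2 scale in this gene.

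The other higher genes named by the rule encode proteins of signalling and housekeeping. Limk1, a kinase that controls actin turnover through cofilin, was 2.54-fold higher at 151 against 59.6, but it read 459 and 290 on the week 6 saline arrays, so it was 2.42-fold lower than that pool. Prkar2a, a regulatory subunit of protein kinase A, was 2.43-fold higher and Ccr6, the receptor of the chemokine Ccl20 on B cells and T cells, 2.39-fold higher. Ccr6 read 153 at week 12 but 128 and 147 on the week 6 saline arrays, a log2 difference of 0.16 from that pool. Oser1 was 2.33-fold, Pgap2, which remodels the lipid of GPI anchors, 2.19-fold, Cand1, which exchanges substrate receptors of cullin ligases, 2.19-fold, and Otub1, a deubiquitinase, 2.18-fold higher. Maz, a zinc finger transcription factor, was 2.09-fold higher. Under the floor in saline were Gtf2f2, a subunit of transcription factor IIF (at least 3.18-fold higher), Urm1, a ubiquitin-like modifier of transfer RNA (at least 2.57-fold), Hus1, a clamp of the DNA damage checkpoint (at least 2.48-fold), and Gabbr1, a GABA receptor (at least 2.45-fold). A second Hus1 probe set went the other way, at a log2 difference of -0.28. Against the week 6 saline pool the log2 difference was only 0.20 for Otub1 and 0.10 for Gabbr1. Oser1, Cand1, Gtf2f2 and Hus1 stayed past 2-fold against that pool, while Prkar2a, Pgap2, Maz and Urm1 were higher by less. Between the repeated arrays of that pool Prkar2a (161 and 73.3) differed by 1.13 and Urm1 (110 and 47.6) by 1.14 on the log2 scale.

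Among the genes lower at week 12 that were above the floor on both arrays, Pla2g2a stood far from the rest. It encodes a secreted phospholipase A2 of crypt cells with antibacterial activity. Pla2g2a read 82.9 at week 12 and 587 in the later saline pool, 7.08-fold lower. Both week 6 saline arrays read 454 and 330, 4.67-fold above week 12 on average. The earlier TNBS pools read 3309 at week 6, 598 at week 8 and 312 at week 10. The week 12 array was the lowest of the 7. The gene has 1 probe set on the array.

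Gdpd3, a lysophospholipase D, read 44.0 at week 12 and 245 in the later saline pool, at least 4.90-fold lower, and 103 and 106 on the week 6 saline arrays. Emp1, an epithelial membrane protein, read 952 against 2235, 2.35-fold lower. Emp1 was at 1036 and 910 on the week 6 saline arrays and at 4602 at week 8, so its week 12 value lay between the values of the repeated week 6 saline arrays. Jund, an AP-1 transcription factor, read 1993 against 4496, 2.26-fold lower, and lay between 2602 and 5131 on the other 5 arrays. Cyp3a13, a cytochrome P450 of the gut, was 2.39-fold lower at 286 against 683. Cyp3a13 lay at 307 to 438 in the other TNBS pools and at 590.2 and 410.2 on the week 6 saline arrays.

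Most of the other leading lower genes were dim. Vps51, of a vesicle tethering complex, was 2.61-fold lower, Hsd3b7, an enzyme of bile acid synthesis, 2.53-fold, St3gal4, a sialyltransferase, 2.53-fold, and Pcp4l1 2.47-fold. P4hb, the protein disulphide isomerase that also serves collagen prolyl hydroxylase, was 2.36-fold lower on a probe set that read 73.3 against 173, while its other probe set lay under the floor. H2-D4, a class I MHC gene, was 2.37-fold and Krt32, a keratin, 2.36-fold lower. Tbc1d10a, which activates the GTPase activity of Rab proteins, was at least 3.55-fold lower, but its second probe set had a log2 difference of 0.10. Lamc1, the gamma 1 chain of laminins, was at least 2.47-fold lower and its second probe set lay under the floor in both pools. Of the other probe sets of called genes, 12 of 22 lay under the floor in both pools. Of the 10 above it 7 shared the direction of the chosen probe set and 3 opposed it.

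Of 13 kept genes of the type I interferon response, 4 were at least 2-fold lower at week 12 than in the later saline pool: Isg15, Ifit1, Ifit2 and Usp18. Over all kept genes 0.88% were. Many genes that type I interferon induces carry the interferon-stimulated response element, a repeat of GAAA with any 2 bases between the copies. Isg15, a ubiquitin-like protein, and Ifit1, which binds viral RNA, were both more than 2-fold lower at week 12, and their promoters are shown because both hold this repeat. The sequences run from 250 bases before to 50 bases after the gene's start, 5′ to 3′ on the gene's strand, from RefSeq on GRCm38.p6; capitals mark matches to GAAA, any 2 bases and GAAA on either strand (TTTC, any 2 bases and TTTC on the other), some of which overlap.
Isg15, chr4:156200769-156201068, minus strand: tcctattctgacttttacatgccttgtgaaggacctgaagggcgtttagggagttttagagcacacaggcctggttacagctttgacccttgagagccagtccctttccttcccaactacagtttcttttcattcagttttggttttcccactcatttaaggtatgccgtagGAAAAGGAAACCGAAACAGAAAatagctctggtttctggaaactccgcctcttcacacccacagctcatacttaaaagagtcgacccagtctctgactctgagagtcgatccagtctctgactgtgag
Ifit1, chr19:34640639-34640938, plus strand: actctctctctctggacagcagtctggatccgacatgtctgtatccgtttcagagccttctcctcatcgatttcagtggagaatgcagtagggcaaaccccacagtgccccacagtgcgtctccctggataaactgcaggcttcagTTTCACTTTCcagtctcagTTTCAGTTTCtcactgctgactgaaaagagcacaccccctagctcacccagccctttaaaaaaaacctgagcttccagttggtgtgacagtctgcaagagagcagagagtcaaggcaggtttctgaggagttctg

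The Isg15 window holds 3 overlapping matches and the Ifit1 window 2 separate ones on the opposite strand. Of 32851 promoter windows of this length 3.44% hold a match, and of the kept genes with a window 3.60%. Of the 27 genes at least 2-fold lower at week 12 that have a window, 3 hold one, and of the 27 higher genes 2 do. Of the 11 kept genes of the type I interferon list with a window, 5 do. Both windows listed for Ifit2 hold none, which says only that these letters are not in them.

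Isg15 read 267 at week 12 and 695 in the later saline pool, 2.60-fold lower, but only 193 and 176 on the week 6 saline arrays. Ifit1 read 119 against 256, 2.15-fold lower, with 24.3 and 16.3 at week 6 in saline. Usp18, which removes Isg15 from proteins, read 56.9 against 142, a log2 difference of -1.32, with 12.6 and 8.8 in the week 6 saline pool. Ifit2, a relative of Ifit1, read 42.3 against 186, at least 3.72-fold lower, with 31.1 and 41.4. All 4 genes were thus well above the week 6 saline level in the later saline pool, and all 4 were highest of all arrays at week 8. With the week 6 saline pool as control the log2 difference was 0.53 for Isg15, at least 1.25 for Ifit1 and at least 0.19 for Usp18, both of which lay under the floor in that pool, and Ifit2 was under the floor on both sides. Direction therefore differed between the 2 controls for Isg15, Ifit1 and Usp18. Over the 13 kept genes of the list 4 were at least 2-fold lower and none higher, beside 0.88% and 0.718% of all genes. Their median log2 difference was -0.31 against 0 for all genes. The same median was 0.20 against the week 6 saline pool, and the later saline pool stood 0.83 above the week 6 saline pool. With the week 6 saline pool as control 2 of the 13 were at least 2-fold higher and none lower, beside 1.34% and 2.02% of all genes. Lgals3bp, a ligand of galectin 3, was 1.62-fold lower. Above 0 were 4 of the 13: Isg20, a nuclease (log2 0.60), Ifitm3, which blocks viral entry (0.23), Ifih1, a sensor of viral RNA (0.16), and Ifi27 (0.030).

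Interferon gamma induces GTPases that attack vacuoles of intracellular pathogens. Of the 14 kept genes of this list 11 lay below 0, and 1 passed 2-fold, upward, beside 0.718% of all genes. The list median was -0.37. The GTPases Igtp (69.2 against 124), Irgm2 (189 against 337) and Iigp1 (89.4 against 145) were 1.79-fold, 1.78-fold and 1.62-fold lower. Against the week 6 saline pool these 3 had log2 differences of -0.17, 0.39 and 0.07, and the list a median of 0.12. Ido1, which degrades tryptophan, went the other way: it read 145 at week 12 against 12.5, at least 2.89-fold higher. Ido1 reached the filter through the week 12 pool alone, and its other probe set lay under the floor.

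**Figure D2:**
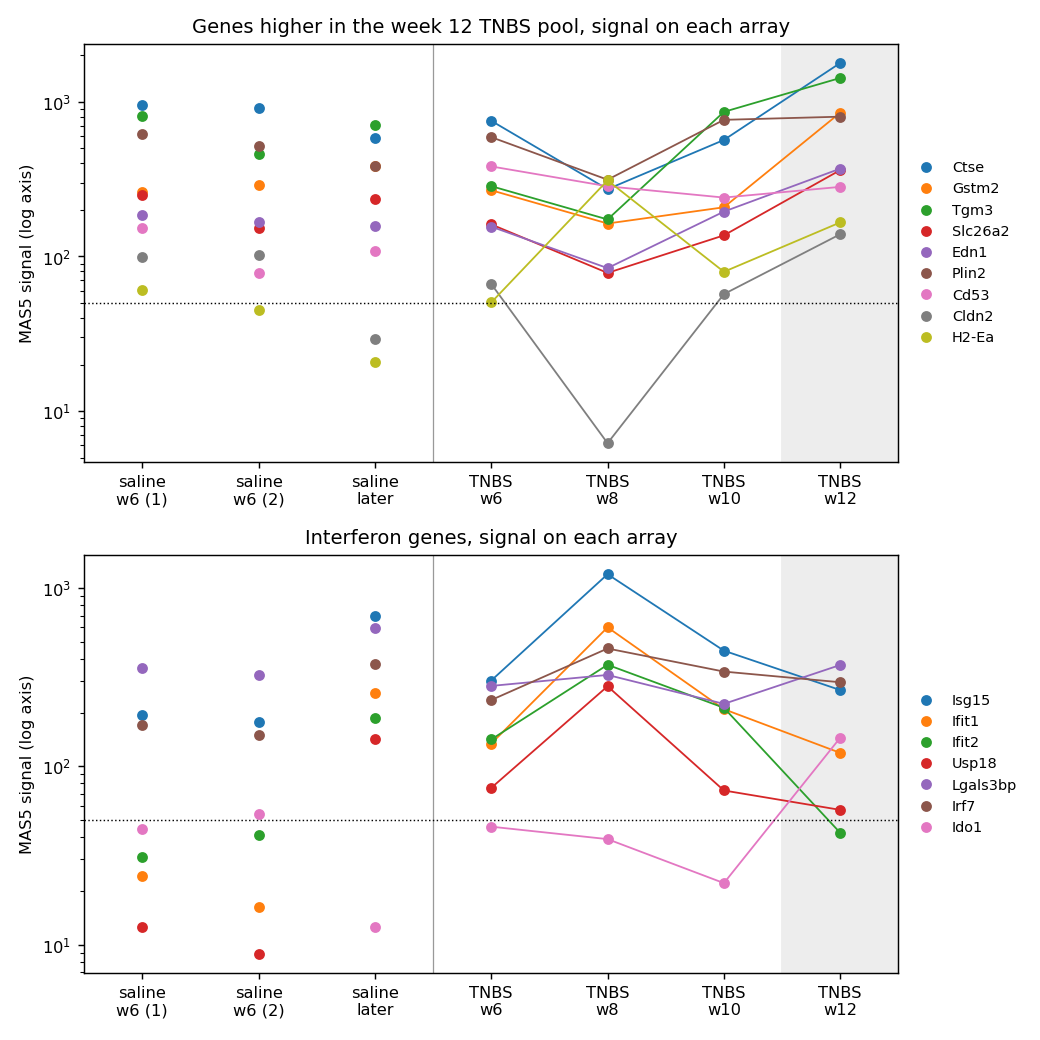
MAS5 signal (log axis) of 9 genes with more signal at week 12 than in the later saline pool (top) and of 7 interferon genes (bottom) on each of the 7 arrays; each point is 1 array, lines join the TNBS pools in order of time, grey shading marks week 12 and the dotted line the floor of 50. Ctse (1785) and Gstm2 (851) are highest at week 12, while Isg15, Ifit1, Ifit2 and Usp18 are high in the later saline pool and at week 8 and low in the week 6 saline pool.

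The genes that were high 3 days after the enemas lay mostly within or below the range of the saline arrays at week 12. Reg3b, an epithelial lectin that binds bacteria, read 201 at week 12, against 382 in the later saline pool and 162 and 170 in the week 6 saline pool. The earlier TNBS pools read 2095, 4017 and 4589. Mcpt1 and Mcpt2, chymases of mucosal mast cells, lay under the floor at week 12, at 27.0 and 21.4, after 310 and 302 at week 10 and 1712 and 1292 at week 6. In saline Mcpt1 read 73.9 to 160.1 and Mcpt2 63.9 to 102, so week 12 was the lowest array for both. Cma2, a further chymase, read 52.7 at week 12 and 94.6 in the later saline pool, 1.80-fold lower, after 562, 456 and 209.

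Plet1, a surface protein of epithelial progenitors, read 494 at week 12, near the week 6 saline values of 508 and 521, after 2358, 2664 and 1403. Ubd (FAT10), which tags proteins for the proteasome, read 54.9 at week 12 and 59.2 in the later saline pool. Reg1, a regenerating lectin, read 56.3 and 78.1, and Wfdc18 111 and 160. Anxa8, an annexin of injured epithelium, was the exception among the 12 genes with the largest difference at week 6. It read 534 at week 12, 328 in the later saline pool and 170 and 137 in the week 6 saline pool, so its log2 difference was 0.70 against the one and 1.81 against the other.

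Week 6 and week 12 were compared through different pools on both sides, so the 2 comparisons share no array. Of 110 genes at least 2-fold higher at week 6 (2.55% of all genes), 1 (Cd53) was at least 2-fold higher at week 12, which is 0.909% of the week 6 genes and 3.23% of the week 12 genes. The 110 genes had a median log2 difference of 1.36 at week 6 and -0.087 at week 12, with 38 above 0, 60 below 0 and 12 under the floor in both pools. Among the 110, 6 were at least 2-fold lower at week 12: Pla2g2a, Ifit1, Ifit2 and the pancreatic enzyme genes Prss2, Ctrb1 and Cel. Of the 43 genes at least 2-fold lower at week 6 (0.996%), 1 (Mab21l2) was at least 2-fold lower at week 12 and 1 (Tgm3) at least 2-fold higher. The background for these week 12 counts was 0.718% upward and 0.88% downward among the 4316 genes. Against the week 6 saline pool instead, 7 of the 110 were at least 2-fold higher and 11 of the 43 at least 2-fold lower. Over all genes these shares were 1.34% and 2.02%. The 110 and the 43 were picked against the same saline arrays, which favours those directions, so these counts are not support.

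**Figure D3:**
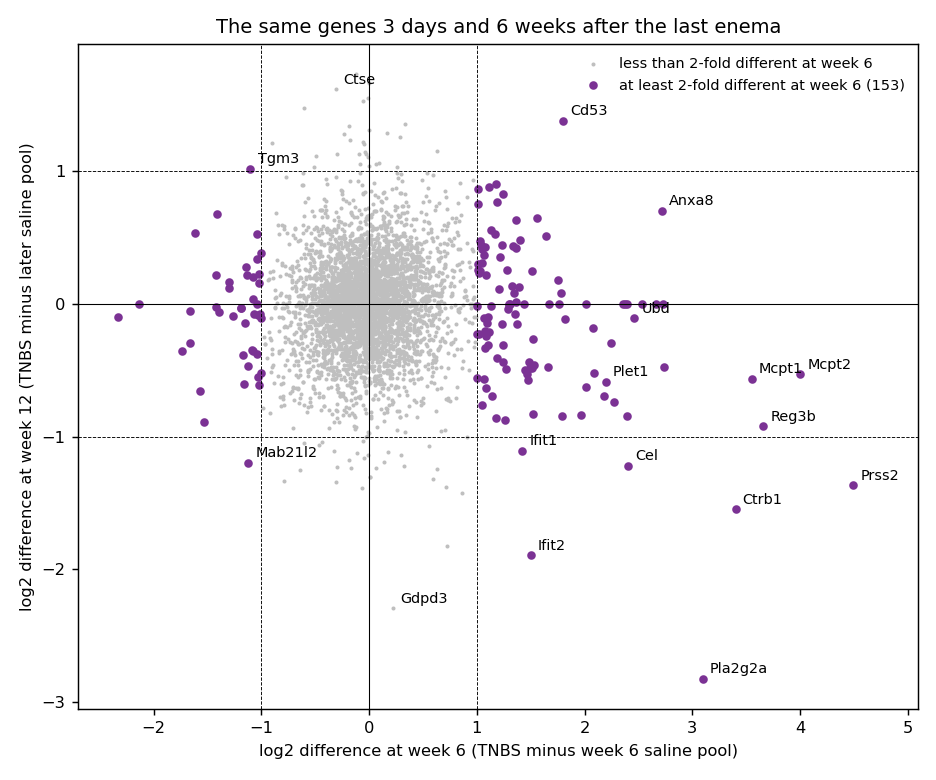
Log2 difference of each of the 4316 genes at week 6 (x, TNBS minus week 6 saline pool) and at week 12 (y, TNBS minus later saline pool); purple marks the 153 genes at least 2-fold different at week 6 and dashed lines mark 2-fold. Reg3b, far to the right, sits at -0.92 at week 12, Pla2g2a lies at -2.82, and only Cd53 lies past 2-fold upward on both axes.

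Whether week 12 differed from the TNBS pools before it was tested without the saline control, against the week 8 and week 10 pools. The test was limma's moderated test with 1 residual degree of freedom, in which the lone week 12 pool is assumed to vary like the other 2 and change from week 8 to week 10 counts as spread. Of 4316 genes 1 passed, lower at week 12 (0.0232%), and none passed upward (0%), while 163 had an unadjusted p under 0.05. That gene was Reg3b, 21.3-fold below the mean of weeks 8 and 10 (log2 -4.41 ± 0.30 SE, limma adjusted p = 0.0326). The log2 difference was -4.32 from week 8 and -4.51 from week 10. The call was lost in a fit without the intensity trend (limma adjusted p = 0.0507) or without the filter (0.0573), at a floor of 100 (0.0847), and when all probe sets of a gene were averaged (0.12).

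The genes next to it in size did not pass, so their values are descriptions. Below weeks 8 and 10 at week 12 lay Ctrb1 (log2 -2.78) and Cma2 (-2.55). Mcpt1, Mcpt2, Prss2, Ifit2 and Cela2a were under the floor at week 12, so their differences of -3.44, -3.06, -3.05, -2.49 and -2.38 with the floor in its place are bounds and have no order. Above them lay Gstm2 (log2 2.21), Ctse (2.18), Tgm3 (1.88), Slc26a2 (1.81), Cand1 (1.76) and Pam, an enzyme that amidates peptide hormones (1.64), and, under the floor at week 8 or at both times, Gtf2f2 (at least 1.67) and Prkar2a (at least 1.64). The limma adjusted p was 0.78 for Gstm2 and 0.867 for Ctse.

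**Figure D4:**
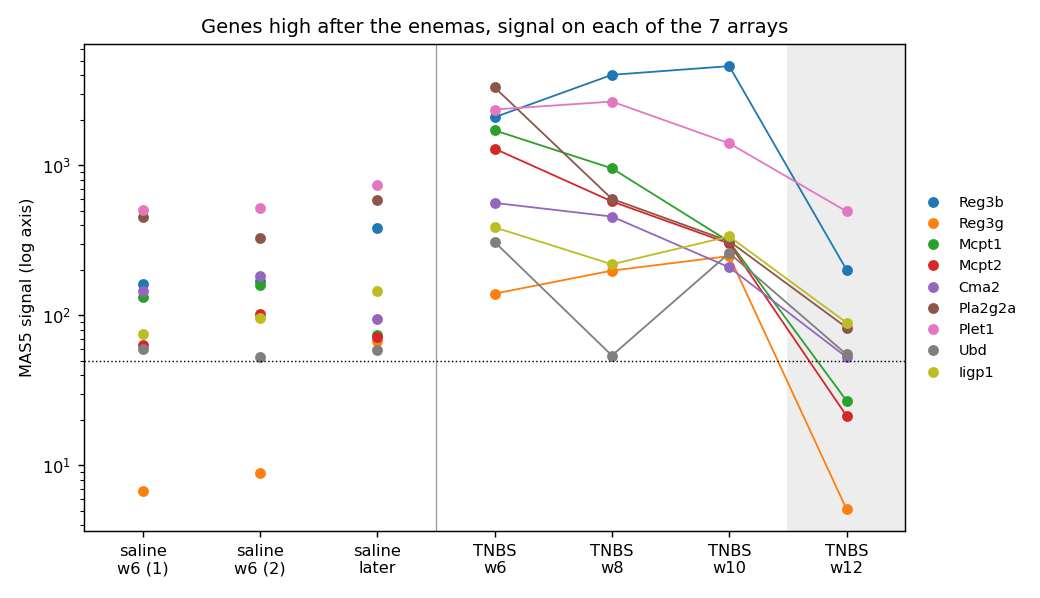
MAS5 signal (log axis) of 9 genes that were high after the enemas, on each of the 7 arrays; each point is 1 array, lines join the TNBS pools in order of time, grey shading marks week 12 and the dotted line the floor of 50. Reg3b stays at 2095 to 4589 through week 10 and reads 201 at week 12, and Mcpt1, Mcpt2 and Reg3g lie under the floor at week 12.

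Lists of genes for cell types and pathways were described by their counts and medians, beside 0.718% of all genes higher, 0.88% lower and a median of 0. In bulk tissue fewer cells of a type and less RNA per cell cannot be told apart. Medians ran from -0.53 to 0.34 over the 39 lists. Of these medians 31 were below 0 and 7 above, although over all genes 2149 lay above and 2145 below. With equal array medians 9 of the 39 medians changed sign, and with the week 6 saline pool as control 13 did.

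The leukocyte lists held few differences. The mast cell list had the lowest median (-0.53, 7 genes kept), with 1 gene at least 2-fold lower: Tpsb2, a tryptase, at 70.4 against 148. Its second probe set had a log2 difference of 0.017. Tpsb2 read 59.9 and 115.8 on the repeated week 6 saline arrays, and its log2 difference from that pool was -0.24. None of 9 neutrophil and acute inflammation genes, 14 macrophage genes, 8 chemokine genes or 4 T and NK cell genes was 2-fold different, with medians of 0, -0.17, 0.037 and -0.080. Of the neutrophil genes 5 lay under the floor in both pools. Cd14, the receptor for endotoxin, read 2246 at week 12 and 1684 in the later saline pool. Itgax, an integrin of dendritic cells, was at least 1.64-fold lower. Complement and acute phase genes had a median of -0.052, with C1ra 1.40-fold higher. The other C1ra probe set went the opposite way, at a log2 difference of -0.33.

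The 16 B and plasma cell genes were split, 8 above and 8 below 0 with none past 2-fold (median -0.011). Cd79a, a subunit of the B cell receptor, read 379 at week 12 and 191 in the later saline pool, 1.98-fold higher, with 267 and 327 in the week 6 saline pool. Fcer2a, the low affinity IgE receptor of B cells, was 1.84-fold and Ms4a1 (CD20) 1.34-fold higher. The other Ms4a1 probe set went the opposite way, at a log2 difference of -0.19. The summed signal of the 5 follicle markers (Ms4a1, Cd79a, Cxcl13, Cr2, Cxcr5) was 835 at week 12, 552 in the later saline pool and 573 and 586 in the week 6 saline pool, with Cr2 and Cxcr5 under the floor. Cxcl13 read 83.9 at week 12 and 84.6 in the later saline pool. In the earlier TNBS pools the sum was 961 at week 6, 718 at week 8 and 540 at week 10. The part of follicle tissue in these values was not tested. All 8 kept genes of the immunoglobulin list lay below 0 (median -0.40), with Ighg3 1.62-fold and Igha 1.42-fold lower. Pigr, which carries IgA across the epithelium, read 3838 against 5776. None of these was 2-fold different, and probe sets of immunoglobulin segments share sequence with other genes. Ighv5-12, a segment outside the list, read 225 against 465, 2.07-fold lower.

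Genes of MHC class II present peptides to helper T cells. They differed in direction. H2-Aa, an alpha chain, read 935 at week 12 against 1872, 2.00-fold lower, and H2-Ab1, its beta chain partner, 226 against 318. H2-Ea, the other alpha chain, read 166 against 20.9, at least 3.32-fold higher, and H2-Eb1, its partner, 438 against 252, 1.74-fold higher. Probe sets of H2 genes may share sequence with each other. H2-Ea was also 311 at week 8, 79.6 at week 10, 50.4 at week 6 and 60.5 and 45.0 in the week 6 saline pool. D17H6S56E-5 followed the same order of the later pools, with 433 at week 8, 54.2 at week 10 and 146 at week 12, and read 29.0 in the later saline pool. Cd74, the invariant chain, read 2185 and 2342. The list had a median of -0.10. The class I and peptide loading list had a median of -0.051, with H2-M9 2.17-fold lower as its 1 gene past 2-fold and Tap1, the peptide transporter, 1.48-fold lower. H2-D4, outside the list, was 2.37-fold lower.

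Among Reg lectins and antibacterial secretions 8 of 11 lay below 0 (median -0.47), with Pla2g2a the 1 gene past 2-fold. Itln1, a lectin of goblet cells, read 4028 at week 12, 6662 in the later saline pool and 9877 and 8861 in the week 6 saline pool, 1.65-fold lower than the later pool. Pglyrp1, which binds peptidoglycan, was 1.53-fold higher. The goblet cell and mucus list had 15 of 19 genes below 0 (median -0.16), with Zg16 1.42-fold and Muc13 1.35-fold lower. A second, dimmer Muc13 probe set had a log2 difference of 0.16. The list median was -0.50 with the week 6 saline pool as control. The summed signal of Tff3, Fcgbp and Agr2 was 11590 at week 12, 14582 in the later saline pool and 19968 and 23718 in the week 6 saline pool.

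Of the 29 genes of absorptive colonocytes 23 lay below 0 (median -0.18), and Tgm3 alone passed 2-fold, upward. Mep1b, a brush border protease, was 1.62-fold lower, Car1, a carbonic anhydrase, 1.55-fold and Fabp2, a fatty acid carrier, 1.52-fold. All 3 had read higher in the later saline pool than in the week 6 saline pool, and against the latter the list median was 0.067. Tight and adherens junction genes lay mostly above 0, with 14 of 21 (median 0.12). Besides Cldn2, Ocln (occludin) was 1.86-fold higher, Dsg2, a desmosomal cadherin, 1.70-fold, Cldn8, a sealing claudin, 1.49-fold and Jup (plakoglobin) 1.47-fold. Dsg2 read 1854 at week 12 and 759 to 1438.5 on all other arrays, whereas Ocln at 135 lay near its week 6 saline values of 131 and 130. The list of epithelial injury genes had a median of -0.18 and no gene past 2-fold. Enteroendocrine genes had a median of -0.25, with the hormones Sst (somatostatin) and Sct (secretin) both 1.85-fold lower.

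Genes of the muscle layer and nerves were lower as groups without reaching 2-fold. In the smooth muscle list 14 of 15 genes lay below 0 (median -0.40). Des (desmin) was 1.59-fold lower, Myh11, smooth muscle myosin, 1.45-fold, and Ckb (creatine kinase) 1.74-fold. Actg2, the enteric smooth muscle actin, read 2316 against 3469. Tpm2, a tropomyosin, was 1.53-fold higher. The summed signal of the 5 smooth muscle markers was 9678 at week 12, the lowest of the 7 arrays, against 12718 in the later saline pool and 10919 to 15393 elsewhere. Its part in other differences was not tested. In the enteric neuron and glia list 8 of 9 genes lay below 0 (median -0.47), with Sox10, a transcription factor of glia, 1.77-fold, Sncg, a synuclein, 1.76-fold and Gal, the neuropeptide galanin, 1.61-fold lower. Both medians were also below 0 against the week 6 saline pool, at -0.25 and -0.50. Against the later saline pool the neuron and glia median was also below 0 at week 8 (-0.49) and week 10 (-0.21). The smooth muscle median was 0.17 at week 8 and -0.011 at week 10.

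The matrix lists did not stand above saline. Of 29 kept collagen and matrix genes 19 lay below 0 (median -0.19) and 1, Lamc1, was at least 2-fold lower. Lamb1, another laminin chain, was 1.79-fold and Hspg2, the basement membrane protein perlecan, 1.65-fold lower. Lum (lumican), a proteoglycan of collagen fibrils, was 1.57-fold higher at 494 against 314. The list median was -0.44 against the week 6 saline pool. Matrix proteases and inhibitors had a median of 0.019 and no gene past 2-fold. Fibrogenic factors had a median of -0.029, with Edn1 the 1 gene past 2-fold and Tgfbi, a matrix protein induced by TGF-beta, 1.66-fold lower. Of 6 endothelial and adhesion genes 4 lay above 0 (median 0.34), among them Edn1 again and Madcam1, the ligand for gut homing integrin, at least 1.75-fold higher. A second Madcam1 probe set had a log2 difference of 0.065.

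Drug metabolism genes lay on both sides, with 2 of 34 genes at least 2-fold higher and 2 lower (median -0.081); Cyp2f2, 1 of the 2 higher, reached the filter through the week 12 pool alone. Gstm2 and Cyp2f2, a cytochrome P450 at 115 against 49.1 (at least 2.31-fold), were higher. Cyp3a13 and Ugt2b5, a glucuronosyltransferase at 65.2 against 142 (2.18-fold), were lower. The Ugt2b5 log2 difference was 0.27 against the week 6 saline pool. Respiratory chain and ATP synthase genes lay below 0 in 30 of 37 cases (median -0.16), each less than 2-fold, with Cox5b 1.45-fold lower. Their median was 0.022 against the week 6 saline pool. Fatty acid oxidation, sterol synthesis and ribosomal protein genes had medians of -0.046, -0.090 and -0.15. Acly, which makes cytosolic acetyl-CoA, read 1409 at week 12 against 789, 1.79-fold higher, and lay at 701 to 776 on the other 5 arrays. The ribosomal gene Rps13, which also reached the filter through the week 12 pool alone, was at least 2.17-fold higher but read 98.9 and 17.1 on the repeated arrays.

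The 35 cell cycle genes were evenly split, 17 above and 18 below 0 (median -0.017), with Aurkb, a mitotic kinase, at least 1.57-fold higher and Foxm1, a mitotic transcription factor, 1.61-fold lower. Cytosolic heat shock, chaperone and antioxidant lists had medians of 0.010, -0.12 and 0.017, with P4hb the 1 gene past 2-fold. Jund was the 1 gene past 2-fold among immediate early genes (median -0.062). In the clock list (median -0.22) Tef, a transcription factor under clock control, was 2.29-fold lower at 93.7 against 215, and Nr1d1 (REV-ERB alpha) 1.52-fold lower. The hour of killing is not given in the sources used here.

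Markers of pancreas and fat, which lie outside the colon wall, were lower at week 12. In the pancreas list 3 of 17 genes passed 2-fold downward and none upward (median -0.47). Ctrb1 (chymotrypsinogen) read 94.4 at week 12 and 276 in the later saline pool, 2.93-fold lower, Cel (carboxyl ester lipase) 87.2 and 203, 2.33-fold lower, and Prss2, a trypsinogen, 3.2 and 129, at least 2.58-fold lower. In the week 6 saline pool Ctrb1 read 188 and 114, Cel 134 and 129 and Prss2 16.2 and 3.2, while at week 8 the TNBS pool read 1790, 1072 and 1502. The sum of these 3 and Cela2a was 218 at week 12, 698 in the later saline pool, 401 and 273 in the week 6 saline pool and 533 to 5446 in the other TNBS pools. At week 12 Prss2 and Cela2a lay under the floor. Adipose genes had 2 of 9 at least 2-fold lower and 1 higher, Plin2. Lep (leptin) read 166 against 341. Adipoq (adiponectin) read 23.9, under the floor, against 135, at least 2.69-fold lower. With the floor in its place its log2 difference from the week 6 saline pool was -0.12. Whether pancreatic or fat tissue in the samples played a part in other differences was not tested. The sum of Adipoq, Fabp4 and Retn was 60.0 at week 12, 237 in the later saline pool and 108 and 117 in the week 6 saline pool. All 3 lay under the floor at week 12, and Retn lay under it on every array, so the week 12 sum is not a measured level. The squamous list had a median of -0.20, with Krt32 its 1 gene past 2-fold, and the skeletal muscle list a median of 0.18 over 4 genes.

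**Figure D5:**
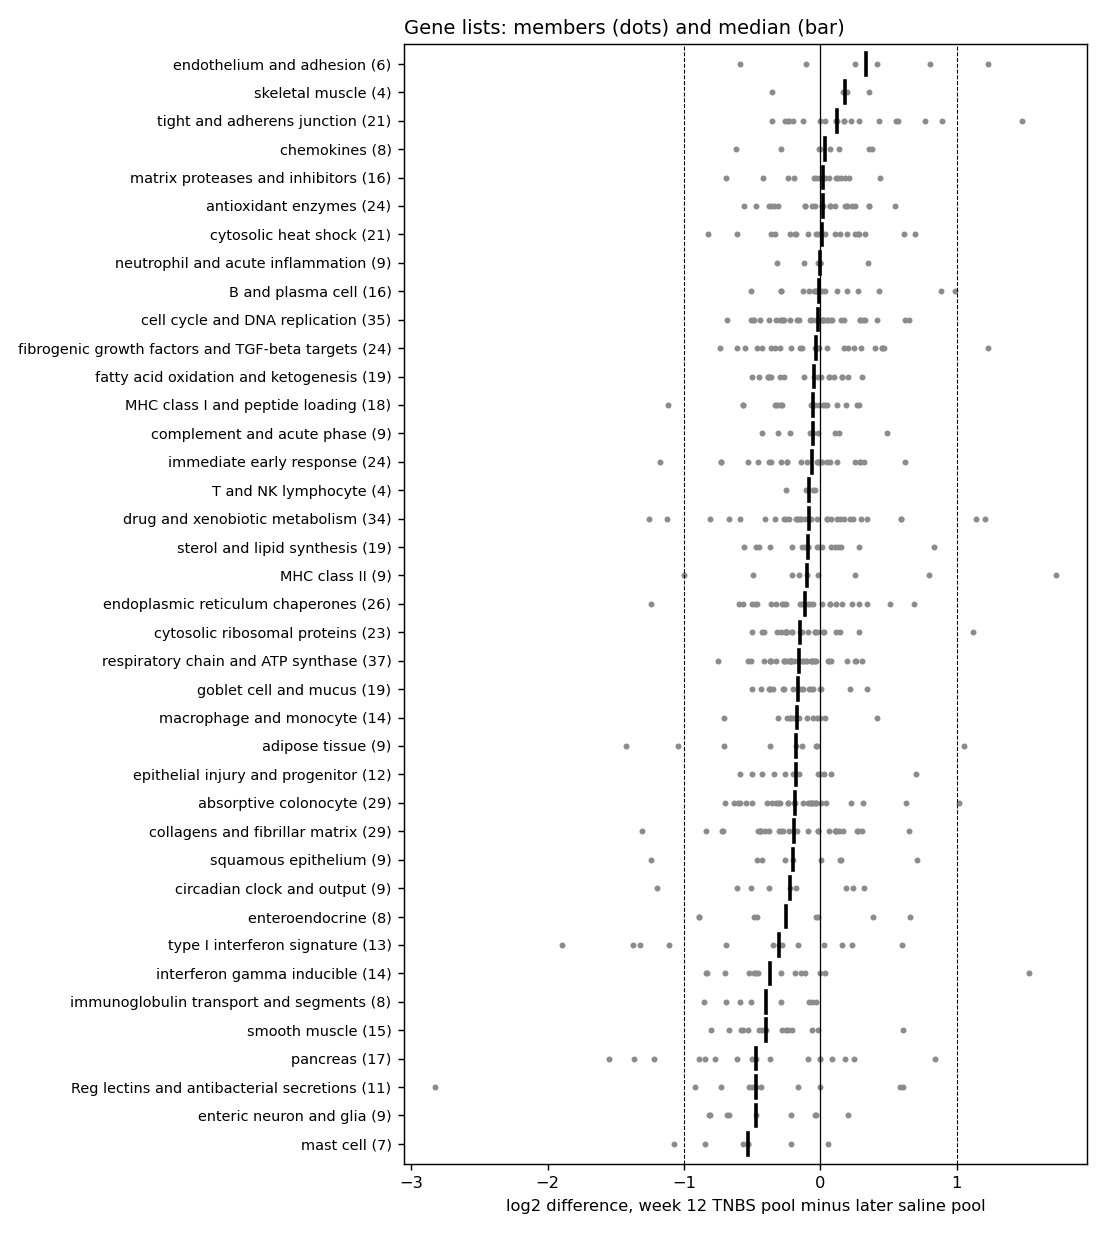
Log2 difference of week 12 TNBS minus later saline for the kept members (dots) of the 39 gene lists, with the number kept in brackets, the list median as a black bar and dashed lines at 2-fold. Medians run from -0.53 (mast cell) to 0.34 (endothelium and adhesion), and most dots lie inside 2-fold, with Pla2g2a far to the left.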

How the data were processed

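The authors deposited linear signal intensities per probe set from Affymetrix Microarray Suite 5.0 (MAS5) with a scaling target of 150, per the labels; genome build and detection calls were not used here. From these intensities 66 control probe sets were left out, and the platform annotation in GEO gave 10833 probe sets 1 symbol, 396 several and 1193 none. Symbols were updated by Entrez identifier through RefSeq GRCm38.p6 (10817 found). Values under 50 were set to 50 before log2, the brightest probe set by mean log2 value stood for a gene, and the repeated week 6 saline arrays were averaged. A difference of at least 2-fold was counted.

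The one test, limma 3.58.1 in R 4.3.3 (lmFit, eBayes with an intensity trend, two-sided, Benjamini-Hochberg over 4316 genes), was checked on simulated data. Precision is limited by 1 array per pool; there are no replicate mice, and p-values measure the spread between pools. Genes are named by a rule: the 14 largest differences each way above the floor, the 8 largest bounds each way, up to 5 members of each of 39 lists and its most abundant gene, the 8 largest differences each way from weeks 8 and 10, the 12 largest at week 6, and genes past 2-fold in all later comparisons. Markers of tissues came from a separate list. Rpf1, Mab21l2, Myh11, Reg3g, the 4 interferon genes above 0 and those genes beyond all 3 saline arrays that the rule leaves out were named after their values were seen. Members and lists were chosen with earlier results of these data known. The alternatives changed floor, scaling, probe set choice, filter, control and fold.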

Additional observations from a re-analysis of the deposited data

Results flagged for a closer look

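For 7 named genes the difference from saline had opposite signs at week 6 and week 12, past 2-fold both times, with 1 pool on each side, so the difference between the times was not tested. Higher at week 6 and lower at week 12 were Pla2g2a (week 12 log2 -2.82, week 6 3.10), Ifit2 (a bound of -1.90, with 141 at week 6 against 31.1 and 41.4 in saline), Ctrb1 (-1.55 and 3.40), Prss2 (bounds of -1.37 and 4.49), Cel (-1.22 and 2.41) and Ifit1 (-1.11 and, as a bound, 1.42). Lower at week 6 and higher at week 12 was Tgm3 (1.02 and -1.10). Each time had its own saline pool as control. With the week 6 saline pool at both times Ifit1 had the same sign, at least 1.25 at week 12. Ifit2 and Prss2 then lay under the floor on both sides. Signs stayed opposite for Pla2g2a (-2.22), Ctrb1 (-0.63), Cel (-0.59) and Tgm3 (1.22), of which only Pla2g2a and Tgm3 passed 2-fold. Among 556 probe sets without 1 gene symbol that reached 100 on some array, 3 passed 2-fold upward at week 12 (0.540%) and 14 downward (2.52%). Over all kept genes the shares were 0.718% and 0.88%. Those were counted per gene and filtered on the highest pool, so the 2 sets of shares are not like for like.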

How the results depend on the processing

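The 31 higher and 38 lower genes became 10 and 17 once the floor was 100, 16 and 14 on the log2(value + 50) scale, and 13 and 23 at a minimum of 200 in the highest pool. They became 58 and 87 with the week 6 saline pool as control, 64 to 89 and 99 to 104 with only 1 of its arrays, 209 and 232 at 1.5-fold, and 3 and 4 at 3-fold. Among genes above the floor in both pools, a choice made after seeing the data, 17 were higher. The overlap of 1 gene with week 6 became 4 with a floor of 25. With the week 6 saline pool as control the log2 differences of Limk1 (-1.27), Isg15 (0.53), Usp18 (0.19), Ifit1 (1.25) and Ugt2b5 (0.27) changed sign, those of Usp18 and Ifit1 as bounds, and Ifit1 was 0.071 against the mean of both saline pools. With 1 array of that pool left out the sign also changed for Otub1 (-0.071), Emp1 (0.065), Gabbr1 (-0.099), Ccnt1 (-0.059) and Tpsb2 (0.23), and the values ranged from -1.60 to -0.94 for Limk1, 0.47 to 0.60 for Isg15 and 0.15 to 0.38 for Ugt2b5. The limma count of 1 gene against weeks 8 and 10 became 0 with a floor of 100, with the mean of probe sets and without a trend, 9 at a floor of 25, 27 on the log2(value + 50) scale, and 176 without a filter, where genes under the floor at both weeks 8 and 10 have no spread; otherwise the cause was not tested. Under the floor, filter, scaling and probe set alternatives each named called gene that the setting kept (32 to 54 genes) held its direction. A floor or filter cannot reverse the difference of a probe set, so these settings were no check of direction. Of the 54 genes, 23 stayed past 2-fold with a floor of 100, 26 on the log2(value + 50) scale and 41 with the mean of probe sets. No paired analysis was possible because each group is 1 pool and replicate numbers exist for the week 6 saline arrays alone. Leaving out the week 8 or week 10 pool leaves no residual degrees of freedom.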

Other observations

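Over all 4316 genes the week 12 pool was the lowest of the 6 pools for 608 and the highest for 809. In the collagen and matrix list it was the lowest for 14 of 29 kept genes and the highest for 1, in the smooth muscle list the lowest for 9 of 15 and the highest for none, and among cytosolic ribosomal protein genes the lowest for 11 of 23. In the drug metabolism list it was the highest for 8 of 34 and the lowest for 2. These counts were taken after the values had been seen.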
